A study of Mus musculus with 41 samples.

Results

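The mitochondrial ribosomal protein genes of the mouse were taken as every gene of the deposited tables whose symbol is Mrpl or Mrps followed by digits and at most 1 further letter, pseudogenes left out. This gave 78 genes of the 50763 in the count table, 49 with Mrpl and 29 with Mrps symbols. The study sequenced polyadenylated RNA in bulk from splenic B cells of mice aged 3 to 5 months. The libraries used here allow asking what altered alleles of the kinases MEK1 and MEK2 change in each B cell subset. Of 41 libraries, 40 from 16 animals were used. Cells had been sorted into 6 subsets. Plasma cells were gated as B220+CD138+ and Immature cells as B220+CD93+ without CD138. Of the cells without CD93 and CD138, germinal center (GC) cells carried GL7 and FAS, Follicular cells CD21 and CD23, and MarginalZone cells CD21 without CD23. The gate of the last subset, age-associated B cells (ABC), is not given in the labels. Wild-type mice (wt) gave 3 Immature, 4 GC, 3 ABC, 4 Follicular, 3 MarginalZone and 3 Plasma libraries, and mice labelled 1Mek2 gave 3, 4, 3, 4, 3 and 3. Mice labelled 1Mek2 carried floxed Mek1 on both alleles, 1 intact Mek2 allele (Mek2+/-) and the Vav1-iCre transgene, whose promoter is active throughout blood cells and not in B cells alone. No allele is given for wt beyond wild type. An Immature library labelled 1Mek2 was left out because its name reads Mek1ff, and a GC library of the same animal, named Mek1ff but labelled wt, was kept as wt. Every library is a pool of sorted cells, so fewer cells of a kind and less RNA per cell cannot be told apart.

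Mitochondrial ribosomes translate the few messages of mitochondrial DNA, all of which encode subunits of the respiratory chain and ATP synthase. Their proteins are encoded in the nucleus, made in the cytosol and imported. Some descend from bacterial ribosomal proteins and others are found only in mitochondria, and the ribosomal RNAs come from mitochondrial DNA. Some symbols mislead: Mrps30 and Mrps18a encode proteins of the large subunit, Mrpl58 is a peptidyl-tRNA hydrolase built into the large subunit, and Mrps36 encodes a subunit of the oxoglutarate dehydrogenase complex. Activated B cells remodel their mitochondria, and plasma cells use respiration to sustain secretion.

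Total gene counts ran from 7883989 to 34925667 per library. Map2k1, the gene of MEK1, differed by a log2 fold change of -0.32 ± 0.18 (SE) on average over the 6 subsets (limma, adjusted p = 0.339) and -0.02 ± 0.18 without ABC. Map2k2, the gene of MEK2, rose in the libraries labelled 1Mek2, by 0.90 ± 0.20 without ABC (adjusted p = 0.0109). The counts cover whole gene spans and do not show which exons were present. Summed markers in CPM, the exon reads scaled to a common library total, were highest in their own subset for GC, MarginalZone and Plasma, but Follicular markers were at 2053 ± 926 (SD, n = 4) in Follicular wt and 2008 ± 151 (n = 3) in MarginalZone wt. The 4 ABC markers summed to 424 ± 246 in ABC wt against 299 ± 136 in MarginalZone wt, and the 5 plasmacytoid dendritic cell markers to 2732 to 3754 in ABC wt and 49.6 to 3904 in ABC labelled 1Mek2, against means of at most 154 in the other groups. Plasma libraries held neutrophil markers (1559 to 5810 in wt, 1876 to 8897 in 1Mek2). The libraries outside Immature and GC were split within each subset by the correlation of genes that are no members with the mean Immature and GC profile. The 7 libraries above the largest gap of their subset are type 1 and the other 19 type 2. This rule gives both types in each of these subsets. It was found in the values and not in the labels. Across subsets the types overlap, with correlations of 0.70 to 0.88 in type 1 and 0.35 to 0.74 in type 2.

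At the level of TPM, a relative transcript abundance per exonic length that allows genes to be compared, the most abundant members over the 40 libraries were Mrpl42 with a median of 708 TPM, Mrps21 with 535, Mrpl33 with 471, Mrps18c with 399 and Mrpl28 with 351. Mrpl42 is a large subunit protein of mitochondria only, Mrps21 and Mrps18c are small subunit proteins with bacterial relatives, and Mrpl33 and Mrpl28 are large subunit proteins with bacterial relatives. The least abundant were Mrpl3 with 11, Mrps35 with 12.3, Mrpl1 with 12.5, Mrps2 with 12.7 and Mrps25 with 13.6 TPM. This order depends on the annotated exonic length, by which TPM is divided. Mrpl3 had 8707 exonic bases and a mean of 1206 exon reads, and Mrpl33 had 466 bases and 2511 reads. The range in TPM is thus wider than that in reads for these members. By role, the median was 107 TPM for the 16 conserved small subunit members, 44.8 for the 10 mitochondrial ones, 63.7 for the 29 conserved large subunit members and 87.9 for the 22 mitochondrial ones, with Mrps36 at 85.6.

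Order among the abundant members changed with the subset. Mrpl42 was at 959 ± 363 TPM (SD, n = 4) in Follicular wt, 760 ± 250 (n = 4) in GC wt, 526 ± 78.5 (n = 3) in Immature wt and 287 ± 39.7 (n = 3) in Plasma wt. Mrps18c was highest in GC wt at 883 ± 272 and lowest in ABC wt at 151 ± 261 TPM. Levels of Mrpl42 in Follicular, GC and MarginalZone wt (840 ± 238) lay within each other's spread, and Plasma wt lay below them. The least abundant member, Mrpl3, was at 28.0 ± 7.19 TPM in GC wt, 27.8 ± 2.37 in Immature wt, 13.2 ± 13.7 in Follicular wt, 11.3 ± 0.624 in Plasma wt, 10.4 ± 10.9 in MarginalZone wt and 2.27 ± 3.78 in ABC wt.

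Across libraries, the members varied least in the set of Immature and GC libraries and most with ABC included. The median member's SD of log2(TPM + 1) was 0.40 over the 14 Immature and GC libraries, 0.87 over the 34 libraries without ABC and 1.44 over all 40. These sets are nested, so the larger ones also hold differences between more subsets. With ABC, 25 of 78 members had at least 1 TPM in every library, and without ABC, 73 did. The median over members was 32.4 to 116 TPM in every library outside ABC, but 0.768, 1.96 and 21.9 TPM in the 3 ABC wt libraries. In ABC wt replicate 1, 46 members had fewer than 10 exon reads and 9 had none. In replicate 2 the numbers were 38 and 3, and in replicate 3 all members had at least 10. Genes that are no members also spread more there. Over those with a mean above 100 exon reads, the SD of log2(CPM + 1) was 3.07, 3.01 and 2.30 in ABC wt. It was 1.89 to 2.26 in the Immature and GC libraries. Within a group, the median coefficient of variation of TPM was 124% in ABC wt, 64.4% in ABC labelled 1Mek2, 60.1% and 52.1% in MarginalZone (wt, then 1Mek2), and 18.2% to 33.0% in the other groups. Plasma had the lowest mean summed member level of the 6 subsets, at 5726 TPM in wt and 5842 in 1Mek2, against 8878 and 9200 in Immature. TPM is relative to each library's total. On scaled gene counts the median member of Plasma differed from Follicular by -0.003 in wt and -0.08 in 1Mek2 (log2).

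**Figure D1:**
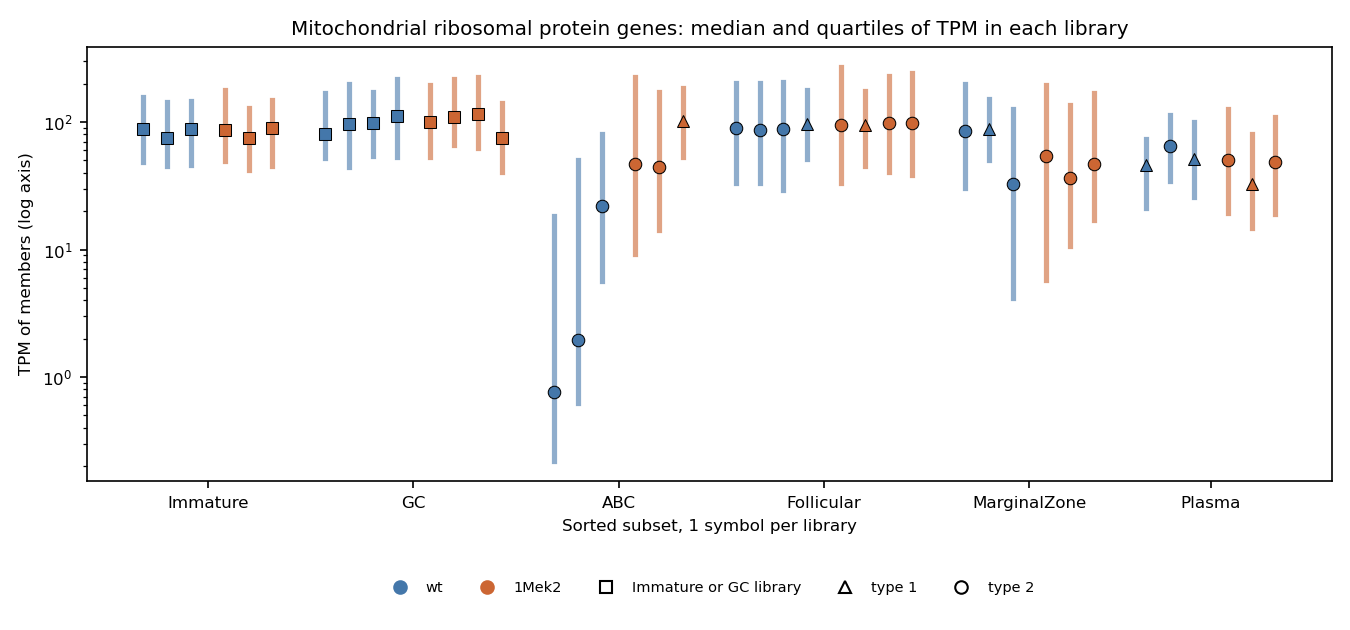
Median (symbol) and quartiles (bar) of TPM over the 78 members in each of the 40 libraries, on a log axis, by subset, genotype (colour) and library type (shape). Immature, GC and Follicular medians lie close together, and the 3 ABC wt medians of 0.768, 1.96 and 21.9 TPM lie below every library outside ABC.

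Low medians in ABC wt came from unequal members and not from all of them, beside the wider spread of other genes given above. Reads per gene in ABC wt were 1, 3 and 19 for Mrpl34, against 5970, 4442 and 1777 in ABC labelled 1Mek2. For Mrpl53, a large subunit protein found only in mitochondria, they were 0, 1 and 30, against 1565, 837 and 1890. In the same ABC wt libraries Mrpl21 had 4838, 1704 and 2389 exon reads, Mrps33 1294, 1180 and 2072, and Mrpl45 747, 2626 and 212, at libraries of 19157012 to 22735395 counts. The 10 highest members held 71.7% to 89.4% of the members' TPM in ABC wt, 33.1% to 45.5% in the Immature and GC libraries and 31.6% to 38.6% in the 7 type 1 libraries. All 3 ABC wt libraries were of type 2. Of the ABC libraries labelled 1Mek2, the type 1 library had a member median of 102 TPM and the type 2 libraries 46.5 and 44.2, all above the 3 ABC wt medians.

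As a share of all gene counts, the members took 0.534 ± 0.056% (SD, n = 4) in Follicular wt, 0.572 ± 0.155% in GC wt, 0.486 ± 0.059% (n = 3) in Immature wt, 0.524 ± 0.029% in Plasma wt, 0.433 ± 0.083% in MarginalZone wt and 0.246 ± 0.012% in ABC wt. In libraries labelled 1Mek2 the shares were 0.757 ± 0.186% in Follicular, 0.684 ± 0.170% in GC, 0.590 ± 0.023% in Immature, 0.744 ± 0.039% in Plasma, 0.506 ± 0.067% in MarginalZone and 0.674 ± 0.062% in ABC. The mean share was higher in the libraries labelled 1Mek2 in each of the 6 subsets. These counts include introns, and exon reads as a percent of gene counts had a higher mean in 1Mek2 in every subset but MarginalZone. Means were 78.0 and 89.3 in Immature (wt, then 1Mek2), 77.6 and 89.8 in GC, 43.7 and 80 in ABC, 69.2 and 81.2 in Follicular, 63.1 and 62.4 in MarginalZone, and 95.9 and 112 in Plasma. Above 100%, exon reads outnumber gene counts, which introns cannot give. In Plasma 1Mek2 replicate 2, at 129%, the members took 0.716% of gene counts but 0.556% of exon reads. The part of these differences in the share was not tested. In TPM, which counts exons only, the members summed to 11654 in GC wt and 11578 in GC labelled 1Mek2, to 11781 and 13294 in Follicular, and to 7997 and 12757 in ABC.

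**Figure D2:**
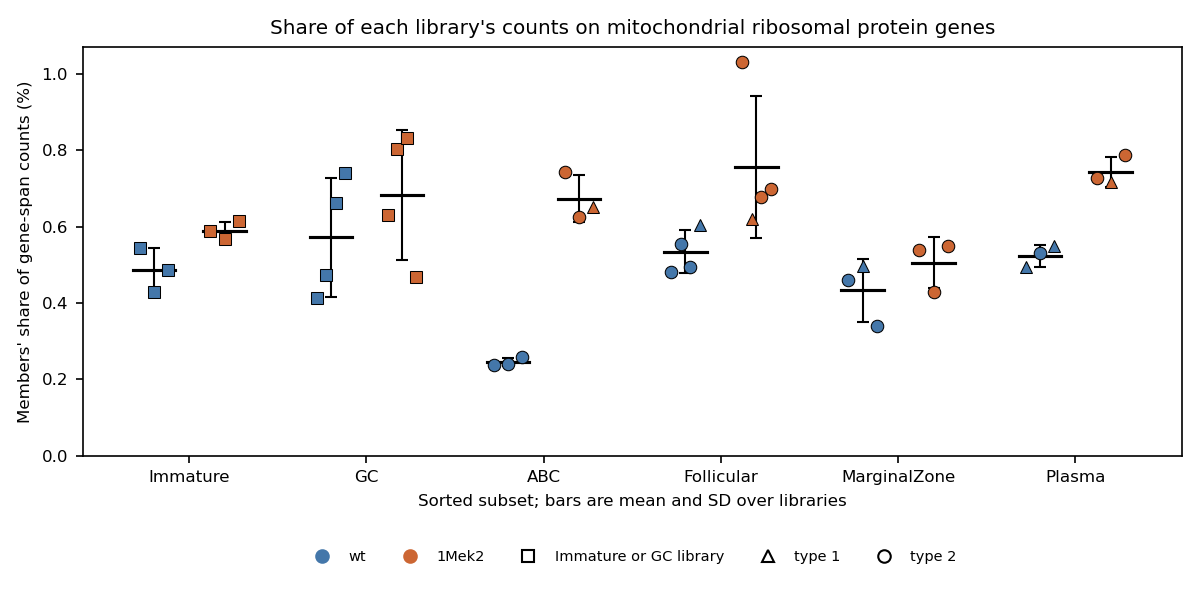
Share of each library's gene counts on the members (vertical axis, percent), by subset, genotype and library type, with mean and SD as bars. The 3 ABC wt libraries sit at 0.246% on average, and the 3 ABC libraries labelled 1Mek2 at 0.674%.

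The comparison of subsets asked which members differ between B cells at rest, in the germinal center and after differentiation, with Follicular as the reference. Mrps30 was the member that stood out in Immature and GC cells. It was at 59.1, 23.1 and 79.4 CPM in Immature wt and at 12.9, 17.5, 14.2 and 10.5 in Follicular wt (gene counts, scaled within this comparison). No Immature value overlapped the Follicular values, and the log2 fold change was 1.97 ± 0.43 (SE; edgeR, adjusted p = 0.0023). In GC wt it was at 33.5, 53.9, 144 and 112 CPM, all above the 9.8 to 17.9 of Follicular wt, a rise of 2.60 ± 0.46 (adjusted p = 0.0015). Libraries labelled 1Mek2, which share no library with wt, gave 3.10 ± 0.35 in Immature and 3.31 ± 0.43 in GC (adjusted p = 0.00049 and 0.00075). In TPM, Mrps30 was at 137 ± 52.8 in GC wt and 194 ± 69.4 in GC 1Mek2, 88.7 ± 44.7 and 184 ± 20.6 in Immature, 21.8 ± 6.72 and 16.4 ± 4.86 in Follicular, and at means of 7.3 to 20.2 in ABC, MarginalZone and Plasma. The names of the Immature and GC libraries are built differently from those of the other subsets, and whether these were prepared apart and the subset cannot be told apart.

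Mrps30 lies on chromosome 13 at 118516646 to 118523788 (GRCm39, minus strand) and overlaps no other gene of the table. Its promoter window in RefSeq on GRCm38.p6, from 250 bases before to 50 after the start, is chr13:118387203-118387502 on the minus strand. It is printed because Mrps30 rose in both subsets and both genotypes. Capitals in printed windows mark the ETS motif CCGGAAG, the YY1 motif AAGATGGC on either strand, and this window holds neither. It holds CCAAT or its reverse complement ATTGG at 3 places.
Mrps30: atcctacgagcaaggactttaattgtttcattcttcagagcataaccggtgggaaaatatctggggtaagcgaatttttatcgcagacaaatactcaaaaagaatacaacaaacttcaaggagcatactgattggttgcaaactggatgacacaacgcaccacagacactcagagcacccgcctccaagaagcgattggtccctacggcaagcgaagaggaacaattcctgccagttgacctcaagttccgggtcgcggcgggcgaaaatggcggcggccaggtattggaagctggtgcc

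In Immature wt 11 of 77 tested members differed from Follicular wt, against 39.4% of all tested genes (32.3% higher, 7.15% lower). Beside Mrps30, 10 members fell: Mrps5, Mrps10, Mrps12, Mrps21 and Mrps24, which are small subunit proteins with bacterial relatives, the small subunit protein Mrps33, and Mrpl4, Mrpl23, Mrpl34 and Mrpl52 of the large subunit. Mrps5 was at 7.5, 20.2 and 21.3 CPM in Immature wt and at 58.2, 69.6, 66.7 and 34.0 in Follicular wt, without overlap, and fell by 1.81 ± 0.44 on the log2 scale (adjusted p = 0.005). Mrpl23, which lies at the exit of the peptide tunnel, was at 36.5, 28.0 and 52.1 CPM against 97.5, 131, 118 and 74.2, and fell by 1.44 ± 0.34 (adjusted p = 0.0039). Mrps21 was at 60.9, 74.8 and 101 CPM against 164, 249, 197 and 113, again without overlap, with a fold change of -1.19 ± 0.33 that lost its call without Immature replicate 2 (adjusted p = 0.0519). The median member differed by -0.17, while the median of all genes was 0.47. Without Follicular wt replicate 4, a type 1 library, 39 members passed, and without Immature wt replicate 2, 6 did. Here and below, counts with a library or animal left out, a block or a term for library type describe the members only. They do not compare the members with other genes. On exon reads 2 of 78 members passed, beside 999 of 15186 tested genes.

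In libraries labelled 1Mek2 the same comparison called 25 members (2 higher, 23 lower) against 30.9% of all genes (18.6% higher, 12.3% lower). All 11 members called in wt were among them, which is 44% of the 25. Mrps12, the small subunit protein at the decoding site, was at 40.7, 37.4 and 37.4 CPM in Immature and at 292, 101, 127 and 136 in Follicular, and fell by 2.09 ± 0.43 (adjusted p = 0.0038). Mrps24 was at 79.3, 66.4 and 73.6 CPM against 530, 118, 179 and 229, and fell by 1.85 ± 0.50, a call lost without Immature replicate 2 or 4 (adjusted p = 0.0756 and 0.0968). Neither gene overlapped between the groups, and in both the highest Follicular value came from replicate 1. Mrps22, a small subunit protein of mitochondria only, rose by 1.29 ± 0.44 (adjusted p = 0.042). The count was 4 without Immature replicate 4 and 7 without Immature replicate 2. It was 14 without Follicular replicate 4, 15 without Follicular replicate 1 and 42 without Follicular replicate 2. On exon reads it was 9 of 78, beside 1620 of 14092 tested genes.

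In GC wt 4 members differed from Follicular wt, against 25.1% of all genes (14.6% higher, 10.5% lower). Mrps30 and Mrpl18, which binds ribosomal RNA in the large subunit, rose, the latter by 1.3 ± 0.37, with values that overlap between the groups. Mrpl38 was at 32.0, 41.7, 50.8 and 42.0 CPM in GC wt and at 108, 109, 81.6 and 89.4 in Follicular wt, without overlap, and fell by 1.22 ± 0.29 (adjusted p = 0.0082). Mrps5 fell by 1.28 ± 0.40. In libraries labelled 1Mek2, 16 members were called (3 higher, 13 lower; all genes 30.9%, with 16.3% higher and 14.6% lower), among them the 4 of wt, a share of 25% of the 16. Mrpl18 was at 272, 196, 435 and 444 CPM in GC and at 140, 182, 125 and 116 in Follicular, and rose by 1.26 ± 0.36. Mrps16, a small subunit protein with bacterial relatives, was at 66.7, 39.8, 101 and 93.2 CPM against 324, 121, 157 and 153, and fell by 1.33 ± 0.42. Neither overlapped between the groups. Mrps16 lost its call without GC replicate 1 or 4 or Follicular replicate 1 or 3 (adjusted p from 0.0594 to 0.0908), and Mrpl18 without GC replicate 2 or 3 or Follicular replicate 4 (0.0622 to 0.0664). The wt count was 7 without GC replicate 3, 2 without Follicular replicate 2 or 3 and 22 without Follicular replicate 4. On exon reads it was 10 of 78, beside 2573 of 14045 tested genes. The 1Mek2 count was 5 without GC replicate 1, 7 without Follicular replicate 1, 31 without Follicular replicate 2, 9 without Follicular replicate 3 and 10 without Follicular replicate 4.

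GC and Immature libraries, named in the same way, did not differ in any member in wt (0 called by edgeR or DESeq2, 2.61% of all genes, 1.94% higher and 0.67% lower, with 8 members at an unadjusted p under 0.05, all higher in GC) or in 1Mek2 (0 called by either tool, 0.273% of all genes, 0.0111% higher and 0.261% lower, with 7 unadjusted, all higher in GC). The direction was shared all the same: 73 of 77 members were higher in GC wt, with a median of 0.56 against 0.04 for all genes, and 74 were higher in GC labelled 1Mek2, with a median of 0.41 against -0.04. On exon reads the medians were 0.33 and 0.24, with 63 and 68 of 78 members higher. Mrps18c was at 81.7, 71.6 and 110 CPM in Immature wt and at 101, 242, 353 and 206 in GC wt, which overlap. Mrpl52 was at 15.1, 19.7 and 22.2 CPM against 19.6, 60.4, 59.5 and 65.3. Cell division genes moved in the same comparison, with 5 of 6 higher in GC wt and a median of 2.60. With the animal as a block, 2 members passed in 1Mek2.

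In ABC wt 20 members differed from Follicular wt, 3 higher and 17 lower, against 20.2% of all genes (11.9% higher, 8.3% lower). Mrpl34 was at 0.0948, 0.259 and 0.926 CPM in ABC wt and at 42.5, 67.6, 49.0 and 35.3 in Follicular wt, and the fitted fold change was -6.77 ± 1.23 (adjusted p = 0.0062). Mrpl51 was at 0.0948, 0.604 and 1.46 CPM against 42.4, 51.4, 37.6 and 78.4 (-6.15 ± 1.22). Both groups were far apart for these genes and for Mrpl53, Mrpl41, Mrpl11 and Mrpl46, whose fitted values were -6.35, -6.26, -6.12 and -5.86. At 0 to 3 reads in single libraries such fitted values depend on the prior count and are no bounds. The higher members were Mrpl45, which anchors the ribosome at the inner membrane, with 625, 574 and 145 CPM in ABC wt and 48.9, 46.8, 34.8 and 107 in Follicular wt (2.92 ± 0.65), Mrpl21 (2.12 ± 0.62) and Mrps33 (1.98 ± 0.52). On exon reads the calls of Mrpl45 and Mrps33 were lost (adjusted p = 0.106 and 0.0736). Mrpl45 had 6589, 6649 and 2986 gene counts in ABC wt but the 747, 2626 and 212 exon reads given above.

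The median member was lower in ABC wt by -1.67 while the median of all genes was 0.08, and 39 of 77 members were lower without overlap and 3 higher, against 24.2% and 15.7% of all tested genes. With the animal as a block, 13 members passed, and the calls of Mrpl21 and Mrps33 were lost (adjusted p = 0.199 and 0.145). The count was 44 without ABC replicate 3, 9, 8, 13 and 12 without Follicular replicates 1 to 4 in turn, and 11 with a term for library type. Mrpl21 lost its call without ABC replicate 1 (1.05, adjusted p = 0.107) and without each Follicular library (adjusted p from 0.0847 to 0.109). Mrps33 lost its call without each Follicular library (0.0559 to 0.0924), Mrpl11 without Follicular replicate 1, 2 or 4 (0.053, 0.0532 and 0.0616) and Mrpl45 without Follicular replicate 1 or 2 (0.0526 and 0.0511). The mitochondrial ribosomal RNA gene mt-Rnr2 rose by 1.93 ± 0.37 in ABC wt. In libraries labelled 1Mek2, ABC against Follicular gave 0 members of 77 (edgeR and DESeq2; 0% of all genes, 0 members at an unadjusted p under 0.05, 1 with the animal as a block and 2 without ABC replicate 3), with a median of -0.15. Beside these results stand the plasmacytoid dendritic cell markers given above, higher in all 3 ABC wt libraries than in any library outside ABC. Their part was not tested.

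In MarginalZone wt no member differed from Follicular wt (0 of 77 by edgeR and DESeq2, 0.34% of all genes, 0.272% higher and 0.068% lower, 0 unadjusted), though 58 were lower, with a median of -0.31 against 0.02. Mrpl54 was at 41.5, 71.2 and 27.3 CPM in MarginalZone wt and at 81.6, 101, 88.3 and 71.2 in Follicular wt, which overlap. In libraries labelled 1Mek2, 3 members were called, all lower, against 2.78% of all genes (1.4% higher, 1.39% lower). Mrps7, a small subunit protein at the site where the subunit head is assembled, was at 3.81, 1.73 and 2.23 CPM in MarginalZone and at 47.0, 150, 62.1 and 65.4 in Follicular, without overlap, and fell by 4.97 ± 0.68 (adjusted p = 0.0079). Mrpl19 was at 11.8, 5.09 and 10.8 CPM against 108, 124, 43.2 and 41.1 (-3.10 ± 0.63), and Mrpl15 at 17.5, 22.9 and 19.7 against 98.1, 115, 66.8 and 58.6 (-2.08 ± 0.47). Mrps7 was called in every alternative and without each library. Mrpl15 lost its call without each of the 7 libraries in turn and Mrpl19 in 6 of these 7 settings. Mrpl15 was not called with the animal as a block (adjusted p = 0.258), and neither Mrpl19 nor Mrpl15 was on exon reads (adjusted p = 0.0659 and 0.103). The count was 1 without Follicular replicates 2, 3 or 4 and without MarginalZone replicates 1 or 2. In TPM, Mrps7 was at 3.03 ± 0.629 in MarginalZone 1Mek2, 56.6 ± 47.7 in MarginalZone wt and 181 ± 35.5 in GC wt.

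In Plasma wt 1 member differed from Follicular wt, against 17.7% of all genes (12.2% higher, 5.53% lower). The median member differed by -0.003 in wt and -0.08 in 1Mek2, beside -0.007 and -0.09 for all genes. Mrpl23 was at 49.9, 42.9 and 49.5 CPM in Plasma and at 94.7, 130, 122 and 69.8 in Follicular, without overlap, and fell by 1.13 ± 0.32 (adjusted p = 0.035). This call was lost without any of Follicular wt replicates 1 to 3 (adjusted p = 0.0787, 0.116 and 0.107) and without any of Plasma wt replicates 1 to 3 (0.0635, 0.065 and 0.0882), and 17 members passed without Follicular replicate 4. In libraries labelled 1Mek2, Plasma against Follicular called 0 of 77 by edgeR and 1 by DESeq2 (19.9% of all genes, 13.9% higher and 5.95% lower; 5 at an unadjusted p under 0.05, 2 with the animal as a block, 1 without Follicular replicate 1 and 2 without Follicular replicate 2). Mrpl13 was at 83.2, 121 and 89.7 CPM in Plasma and at 48.5 to 54.6 in Follicular, without overlap (0.93 ± 0.31, adjusted p = 0.0639).

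**Figure D3:**
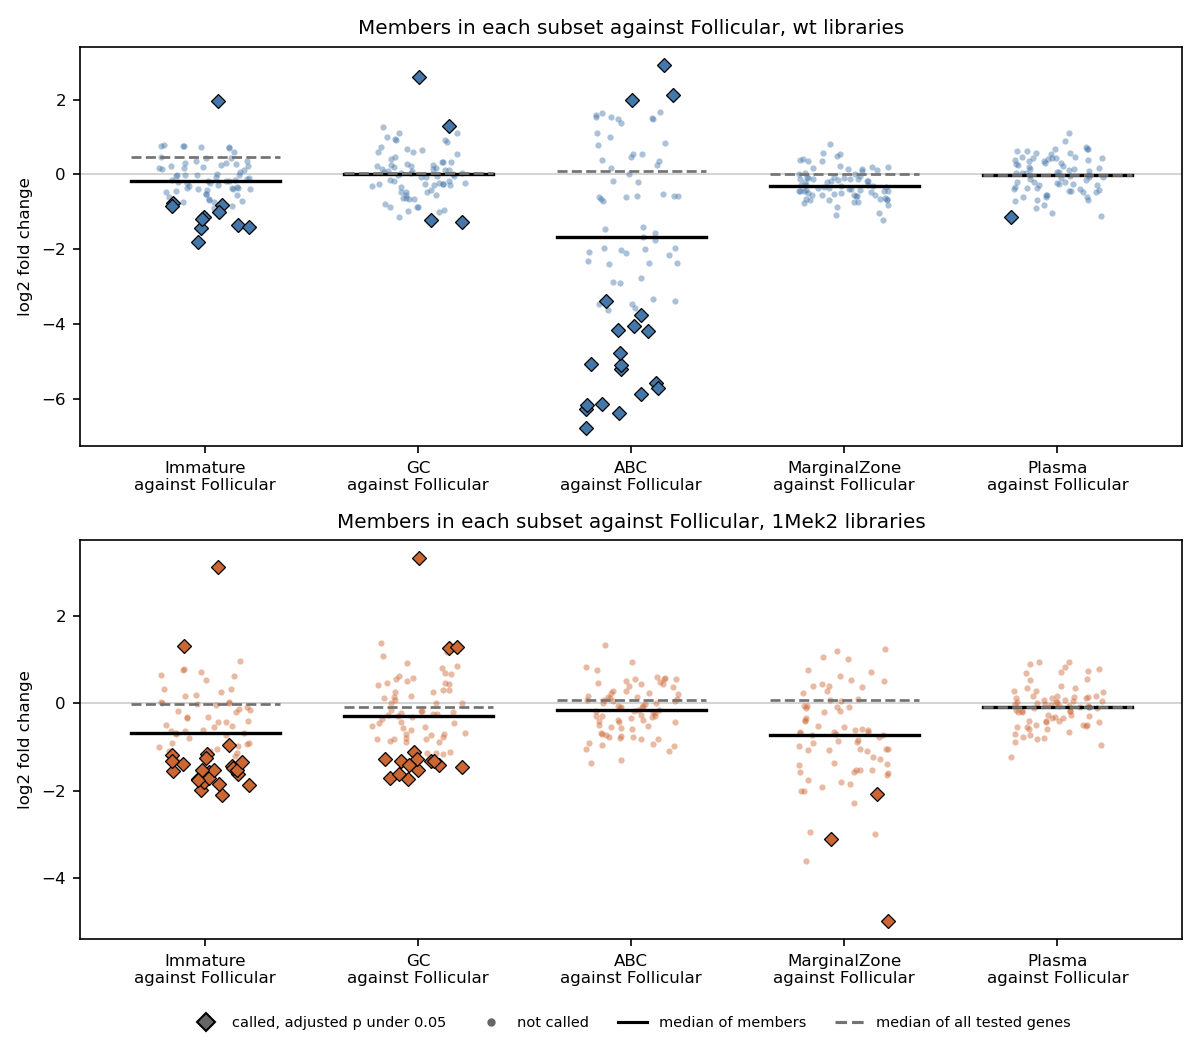
Log2 fold change (vertical axis) of the 77 tested members in each subset against Follicular, in wt libraries (upper panel) and libraries labelled 1Mek2 (lower panel), with 1 point per member, diamonds for adjusted p under 0.05 and lines for the medians. Mrps30 is the highest diamond for Immature and GC in both panels, and 17 diamonds lie below 0 for ABC wt.

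Across the 6 wt subsets in 1 test with no term for the animal, 32 of 77 members differed (63.8% of all genes). Without ABC, 10 did (55.1% of all genes): Mrps30, Mrps33, Mrpl58, Mrps5, Mrpl23, Mrps21, Mrps18c, Mrps10, Mrpl38 and Mrpl34. Both shares lie below that of all genes.

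The genotype comparison asked what the 1Mek2 genotype changes in each subset. A single member passed in 1 subset and the direction was shared by most. In Immature cells, Mrps30 was at 63.4, 19.5 and 74.6 CPM in wt and at 123, 213 and 138 in libraries labelled 1Mek2. The groups did not overlap, and it rose by 1.59 ± 0.41 (adjusted p = 0.0322), the only call among 77 members (0.933% of all genes, 0.81% higher and 0.123% lower; 10 members at an unadjusted p under 0.05, beside 8.71% of all genes). The call was lost without wt replicate 2 or 3 (adjusted p = 0.322 and 0.0527), without 1Mek2 replicate 3 or 4 (0.552 and 0.115), with DESeq2 (0.163, with 0 members called and 1.36% of all genes) and on exon reads (0.129). The number of members called was 2 without wt replicate 1 and 3 without 1Mek2 replicate 2. Mrps22 was at 36.7, 8.78 and 23.6 CPM against 39.4, 99.1 and 87.1, with 1.71 ± 0.47 (adjusted p = 0.0546). The 5 GC markers moved in the same direction, at 81.6 to 547 CPM of exon reads in Immature wt and 1258 to 1480 in Immature 1Mek2, as did the 5 Plasma markers (512 to 1439 against 3108 to 6960) and the 6 cell division genes (139 to 781 against 1296 to 1518). Their part in the members' difference was not tested.

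In the other 5 subsets no member passed. By edgeR, 0 members were called in GC, where 0.054% of all genes were (0.018% higher, 0.036% lower), and 0 in Plasma, where 0.0605% were (0.0202% higher, 0.0403% lower). In ABC, Follicular and MarginalZone 0% of all genes were called. At an unadjusted p under 0.05 there were 14 members in GC (12.1% of all genes), 29 in Follicular (11.1%), 23 in Plasma (15.4%), 10 in MarginalZone (8.77%) and 27 in ABC (20%), and all of these were higher in libraries labelled 1Mek2 but 1 in MarginalZone. DESeq2 called 21 members in ABC (11.5% of all genes), 15 in Plasma (7.26%), 3 in MarginalZone (1.56%), 0 in GC (0.851%) and 0 in Follicular (0.948%). Without ABC wt replicate 2 or ABC 1Mek2 replicate 2, edgeR called 1 member in ABC. Of 77 members, 74 had a positive difference in GC cells and 73 in Immature cells, with medians of 0.44 and 0.47 beside -0.09 and -0.17 for all genes. Plasma cells had 66 and Follicular cells 72, with medians of 0.62 and 0.70 beside -0.02 and 0.02. MarginalZone had 42, with a median of 0.10 beside 0.02, and ABC 58, with 2.10 beside 0.03. On exon reads the medians were 0.09 in GC, 0.24 in Immature, 0.63 in Plasma, 0.66 in Follicular, 0.39 in MarginalZone and 2.02 in ABC.

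Among single members, Mrpl57 had the smallest adjusted p in Plasma, at 90.6, 55.7 and 88.6 CPM in wt and 324, 321 and 382 in 1Mek2 (2.13 ± 0.34, adjusted p = 0.068). Mrpl54 was at 44.0, 66.2 and 72.4 CPM against 165, 207 and 204 (1.66 ± 0.34, adjusted p = 0.0827), and Mrpl34 at 31.4, 31.6 and 40.3 against 97.3, 94.6 and 101. All 3 are large subunit proteins, and in none of them did the groups overlap. In Plasma 42 of 77 members were higher in every library labelled 1Mek2 than in every wt library and 0 were lower in every one, against 13.2% and 10.2% of all tested genes. In MarginalZone, Mrpl57 was at 46.6, 78.6 and 55.0 CPM against 236, 172 and 249 (1.87 ± 0.46), Mrpl16 at 25.1, 20.5 and 18.7 against 101, 61.0 and 86.0 (1.95 ± 0.59), and Mrps7 at 57.7, 32.1 and 6.47 against 3.83, 1.73 and 2.27 (-3.62 ± 1.04), each with an adjusted p of 0.519. DESeq2 called these 3 members (adjusted p = 0.0316, 0.0265 and 0.00538).

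In Follicular cells Mrps34, a small subunit protein of mitochondria, was at 63.5, 57.6, 51.1 and 73.2 CPM in wt and 265, 105, 108 and 104 in 1Mek2 (1.25 ± 0.37, adjusted p = 0.42). Mrps16 was at 74.0, 91.5, 80.1 and 98.2 CPM against 330, 122, 157 and 152 (1.15 ± 0.35). Neither overlapped, and for both the first library labelled 1Mek2 was far above the other 3. In GC, Mrpl4 was at 57.8, 71.1, 67.0 and 72.2 CPM against 105, 117, 133 and 143 (0.89 ± 0.30, adjusted p = 0.409), again without overlap. In ABC, Mrpl34 was at 0.0786, 0.205 and 0.714 CPM in wt and 253, 168 and 45.5 in 1Mek2, with a fitted fold change of 8.80 ± 1.61 and an adjusted p of 0.0889, and Mrpl51 at 0.0786, 0.478 and 1.13 against 91.9, 30.7 and 68.4 (adjusted p = 0.122). These values rest on the low counts of ABC wt described above, and with another scaling the median of all genes in this comparison moved from 0.03 to -0.34 and that of the members from 2.10 to 1.82.

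**Figure D4:**
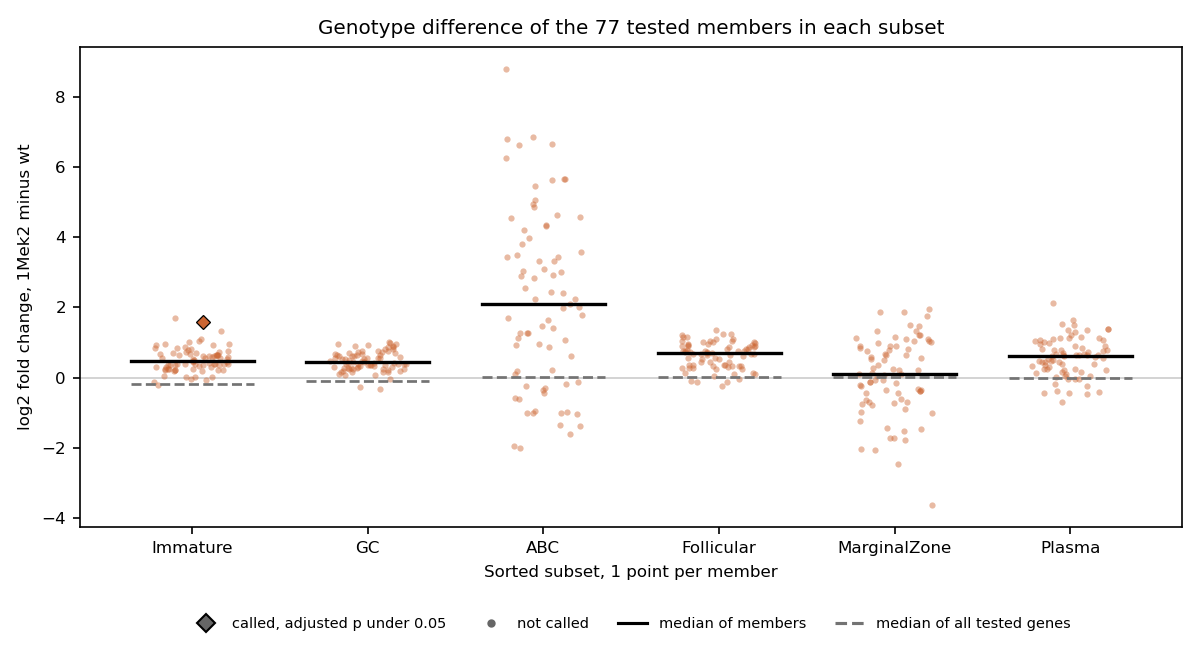
Log2 fold change of the 77 tested members between libraries labelled 1Mek2 and wt (vertical axis) in each subset, 1 point per member, with diamonds for adjusted p under 0.05 and lines for the medians of the members and of all tested genes. The members' median lies above that of all genes in each subset, by the least in MarginalZone (0.10 against 0.02), and Mrps30 in Immature is the only diamond.

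Averaged over the 6 subsets with the animal as a random block, 31 of 77 members rose in libraries labelled 1Mek2 and none fell. Among all genes 6.06% were called (4.66% higher, 1.4% lower). Of the calls among members, 23 were made with ABC only. This fit used 1 residual variance per gene for all groups, while the median coefficient of variation was 124% in ABC wt. Its p-values thus do not measure the spread within ABC alone. Differences were positive for 74 members, with a median of 0.77 against -0.12 for all genes, and 47 had an unadjusted p under 0.05. Mrpl34 had the largest average at 2.38 ± 0.29 (limma, adjusted p = 1.57e-06), then Mrpl53 at 2.14 ± 0.31, Mrps11 at 1.96 ± 0.27, Mrpl57 at 1.73 ± 0.34, Mrpl11 at 1.72 ± 0.35 and Mrpl28 at 1.65 ± 0.28. The smallest called value was 0.89, of Mrpl42. Of the 31, 22 were positive in 6 of 6 subsets and 9 in 5 of 6. The 3 negative members were Mrps35, Mrpl1 and Mrpl47 (-0.19, -0.09 and -0.06), and none of them passed.

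Without ABC the averages were smaller: 10 members rose and none fell, against 2.33% of all genes (1.97% higher, 0.363% lower), 70 were positive, and the median was 0.45 against -0.05. These were Mrps11 at 1.19 ± 0.22 (adjusted p = 0.00272), Mrpl57 at 1.18 ± 0.22, Mrpl34 at 1.15 ± 0.25, Mrps34 at 1.08 ± 0.20, Mrpl54 at 1.08 ± 0.22, Mrpl42 at 0.89 ± 0.22, Mrpl28 at 0.88 ± 0.21, Mrpl16 at 0.84 ± 0.21, Mrpl55 at 0.80 ± 0.22 and Mrpl2 at 0.67 ± 0.19 (adjusted p = 0.0478). All 10 were positive in 5 of 5 subsets. Of these, 8 also passed with ABC, and Mrpl16 and Mrpl55 passed without ABC only. Mrpl53 and Mrpl11, among the largest with ABC, were at 0.97 ± 0.28 (adjusted p = 0.0541) and 0.50 ± 0.33 (0.573) without it. The count was 3 without animal 358, 5 without 323, 570 or 654, 6 without 413 or 636, 5 on exon reads and 19 with a term for library type. With ABC it ran from 25 to 37 without any 1 animal.

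**Figure D5:**
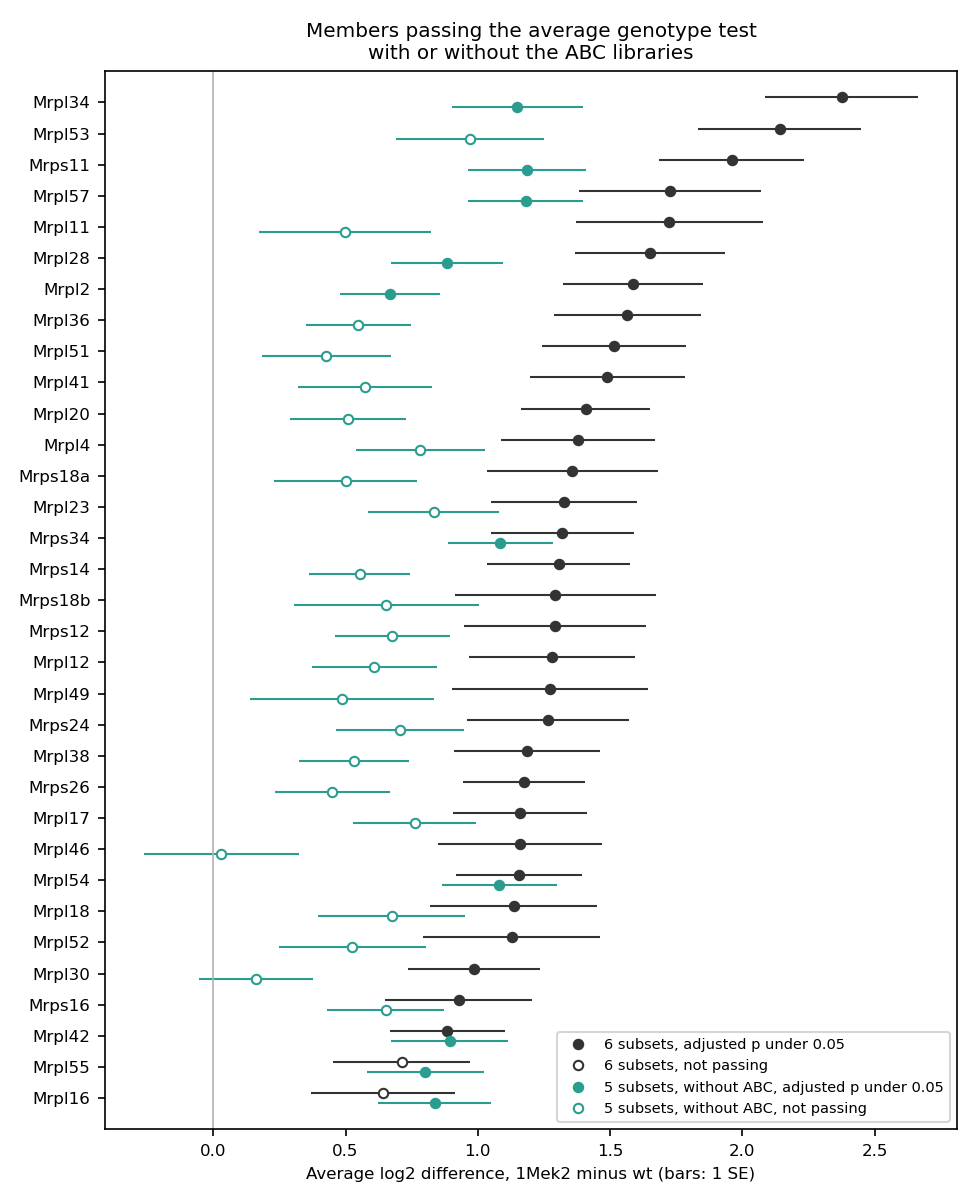
Average log2 difference between libraries labelled 1Mek2 and wt (horizontal axis, bars 1 SE) of the 33 members passing with or without the ABC libraries, filled where the adjusted p was under 0.05. Dark points include ABC and lie to the right of the lighter points except for Mrpl42, Mrpl55 and Mrpl16.

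The genotype difference itself differed between subsets for 14 members, against 2% of all genes, and for 1 when the ABC libraries were left out. This test had no term for the animal, though animals gave several libraries. It used 1 dispersion per gene for all groups, while the median coefficient of variation was 124% in ABC wt. Its p-values thus do not measure the spread within ABC alone. The largest spread was that of Mrpl34, with 8.80 in ABC and 0.81 to 1.5 in the other subsets (interaction, adjusted p = 2.27e-05). Mrps34 was at 0.86 ± 0.33 in GC, 0.96 ± 0.43 in Immature, 1.13 ± 0.32 in Plasma, 1.25 ± 0.37 in Follicular, 1.5 ± 0.59 in MarginalZone and 0.92 ± 1.27 in ABC. It did not pass in any subset alone.

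By role, 5 of 16 conserved and 3 of 10 mitochondrial small subunit members rose in the average over 6 subsets, and 12 of 28 conserved and 11 of 22 mitochondrial large subunit members. Without ABC the counts were 1, 1, 4 and 4. The stalk recruits translation factors to the large subunit: its base protein Mrpl11 rose by 1.72, and Mrpl12 of the stalk itself by 1.28 ± 0.31 (adjusted p = 0.00829), while Mrpl10, which joins them, was at 0.18 ± 0.24 and did not pass. Among the 3 paralogs named Mrps18, Mrps18a of the large subunit rose by 1.36 ± 0.32 and Mrps18b by 1.29 ± 0.38, and Mrps18c, the most abundant, was at 0.77 ± 0.27 (adjusted p = 0.0798). Mrps12 rose by 1.29 ± 0.34, and the hydrolase Mrpl58 was at 0.64 ± 0.25 (adjusted p = 0.137). None of these 8 members passed without ABC. Mrps18a had a mean of 524 gene counts beside 2011 exon reads per library, so its fold rests on a part of its exon reads. Mrps18a was at 38.5 ± 40.3 TPM in ABC wt and 406 ± 161 in ABC 1Mek2, and at 238 ± 24.6 and 351 ± 190 in Follicular. Mrps12 was at 375 ± 631 TPM in ABC wt and at 361 ± 184 in ABC 1Mek2.

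Other genes of mitochondrial translation were described from lists, beside the 4.66% of all genes that rose in the average over 6 subsets. Of 5 mitoribosomal proteins with other names, 3 rose in the average over 6 subsets: Aurkaip1 by 1.67 ± 0.23, Gadd45gip1 by 1.44 ± 0.22 and Chchd1 by 1.10 ± 0.30. Gadd45gip1 also rose without ABC, by 1.01 ± 0.20 (adjusted p = 0.0043). Of 23 assembly factors 1 rose (Malsu1, 0.80 ± 0.22), of 13 translation factors 1 (the elongation factor Tsfm, 1.17 ± 0.28), of 20 tRNA synthetases 2 (Sars2 and Tars2, 1.36 ± 0.32 and 0.93 ± 0.26) and of 11 transcription genes 1 (Slirp, 1.37 ± 0.33). Calls in these 4 lists were few, 1 or 2 each, and such shares lie near that of all genes. None of the 4 lists had a call without ABC. The 11 tested messages of mitochondrial DNA had no call and a median of -0.01, with 5 positive, and without ABC a median of -0.12, with 2 positive. The 2 mitochondrial ribosomal RNA genes had no call and a median of -0.57. Beside the average stand markers of other cells that were higher in libraries labelled 1Mek2: 4 of 8 neutrophil markers rose (Ngp by 4.16 ± 0.90), 1 of 7 T cell markers (Thy1), 1 of 5 GC markers (Gcsam), 2 of 5 Plasma markers (Jchain and Derl3) and 1 of 4 ABC markers (Tbx21). The plasmacytoid dendritic cell marker Ccr9 fell, and 0 of 6 cell division genes passed, with a median of 1.10. Without ABC, Thy1 and the ABC marker Itgax rose and no other marker of these lists passed. The neutrophil markers summed to 0 to 0.11 CPM of exon reads in ABC wt and 39.4 to 275 in ABC 1Mek2, and their part in the members' values was not tested.

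Promoter windows of RefSeq on GRCm38.p6, 300 bases each, were found for 69 of the 78 members (75 windows). Since many members moved together, short motifs were searched on both strands, and the shares of all 32851 windows are given beside them. The ETS motif CCGGAAG was in 34.7% of member windows and 8.86% of all, and the YY1 motif AAGATGGC in 16% and 2.75%. CCAAT was in 40% and 37.4%, the Sp1 motif GGGCGG in 52% and 35.7%, and TATAAA in 6.67% and 13.6%. Member windows were richer in G and C (median 58.7% against 52.7%) and in CpG (21 against 7 per window). Of the 27 called members with a window (average over 6 subsets) 12 held the ETS motif, and of the 41 other tested members with a window 13 did. For YY1 the numbers were 7 and 5, and for NRF1 0 and 3. A match is a string of letters and was not tested as a binding site.

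Windows are printed for the 4 members with the largest average and for Mrpl46, which starts 42 bases from Mrps11 on the other strand (GRCm39). Positions count from the start at 0, and capitals are as above. Mrpl34 (chr8:71464676-71464975, plus strand) holds CCGGAAG at -37. Mrpl53 (chr6:83108858-83109157, plus strand) holds it at -59 and, on the other strand, at -16. Mrpl57 (chr14:57825989-57826288, plus strand) holds it at 4, behind the start. Mrps11 (chr7:78782881-78783180, plus strand) holds AAGATGGC on the other strand at -107. Mrpl46 (chr7:78783040-78783339, minus strand) holds neither motif within its window. The AAGATGGC match of the Mrps11 window lies just past the end of the Mrpl46 window, on the strand of Mrpl46.
Mrpl34: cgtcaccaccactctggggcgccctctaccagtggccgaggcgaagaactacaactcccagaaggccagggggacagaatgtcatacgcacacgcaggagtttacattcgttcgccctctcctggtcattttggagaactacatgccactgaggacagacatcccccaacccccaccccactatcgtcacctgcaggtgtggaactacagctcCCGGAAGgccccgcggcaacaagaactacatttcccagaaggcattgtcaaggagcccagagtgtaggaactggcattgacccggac
Mrpl53: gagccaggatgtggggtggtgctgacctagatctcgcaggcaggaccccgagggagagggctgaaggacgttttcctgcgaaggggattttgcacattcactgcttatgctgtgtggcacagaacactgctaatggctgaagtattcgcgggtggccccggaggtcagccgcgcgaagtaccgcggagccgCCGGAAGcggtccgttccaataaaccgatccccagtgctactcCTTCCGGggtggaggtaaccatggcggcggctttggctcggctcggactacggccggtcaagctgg
Mrpl57: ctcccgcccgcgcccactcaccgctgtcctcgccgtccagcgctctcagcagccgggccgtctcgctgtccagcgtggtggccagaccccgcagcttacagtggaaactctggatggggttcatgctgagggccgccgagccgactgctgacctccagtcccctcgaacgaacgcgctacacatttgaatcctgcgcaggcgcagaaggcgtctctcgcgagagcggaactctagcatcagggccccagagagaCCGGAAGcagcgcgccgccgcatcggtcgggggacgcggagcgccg
Mrps11: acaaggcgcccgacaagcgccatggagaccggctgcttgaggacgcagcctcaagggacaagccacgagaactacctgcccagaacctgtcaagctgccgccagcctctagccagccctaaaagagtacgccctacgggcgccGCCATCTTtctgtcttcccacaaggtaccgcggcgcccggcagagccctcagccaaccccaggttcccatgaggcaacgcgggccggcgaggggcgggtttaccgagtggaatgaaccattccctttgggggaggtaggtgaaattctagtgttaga
Mrpl46: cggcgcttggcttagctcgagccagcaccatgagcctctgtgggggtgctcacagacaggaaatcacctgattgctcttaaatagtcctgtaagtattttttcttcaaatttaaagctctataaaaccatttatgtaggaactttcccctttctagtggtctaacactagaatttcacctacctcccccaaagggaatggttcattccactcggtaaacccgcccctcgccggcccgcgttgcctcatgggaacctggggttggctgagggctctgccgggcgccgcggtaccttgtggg
Although their windows overlap, Mrps11 was at 1.19 ± 0.22 and Mrpl46 at 0.03 ± 0.29 in the average genotype difference without ABC, and at 1.96 ± 0.27 and 1.16 ± 0.31 with it. This difference between the 2 genes was not tested.

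By their medians, the members that rose were shorter and more abundant than the others, with exceptions such as Mrpl42 and Mrps18a, which span 21145 and 17905 bases, and Mrpl4, at a median of 23.2 TPM. The 31 called in the average over 6 subsets had a median span of 4118 bases and a median of 152 TPM, and the 46 others 9408 bases and 48.8 TPM. For the 10 called without ABC the span was 3382 bases, against 8124 for the other 67. Over the 77 members the average difference had a Spearman rho of -0.61 with span, -0.26 with exonic length and 0.49 with TPM, and without ABC -0.39, -0.25 and 0.47. These are descriptions across genes that share all libraries. The counts include introns, and exon reads as a percent of gene counts differed between the genotypes outside MarginalZone. The part of this in the relation was not tested. On exon reads 26 of 78 members rose in the average over 6 subsets and 5 without ABC. The share of all genes on exon reads is not given for these averages, so members and other genes are not compared there.

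Mrpl33 was not tested on gene counts, where it stood at 0 in every library. It overlaps the gene Gm38424 on the same strand, and in all 7 members overlap a same-strand gene and 27 any gene. The rule for reads in overlaps is not given in the sources used here. In TPM it was among the most abundant, at 1754 ± 559 in ABC wt, 666 ± 320 in Follicular wt, 586 ± 269 in GC wt, 327 ± 116 in Immature wt and 234 ± 41.3 in Plasma wt. On exon reads it rose in ABC wt against Follicular wt by 2.47 ± 0.74 (adjusted p = 0.0408) and passed in none of the other 17 comparisons between 2 groups.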

How the data were processed

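Libraries were mapped to groups by their labels. Per the submitters' processing notes, the tools were STAR 2.7.11a, featureCounts 2.0.3 and Trim Galore 0.6.5 on GRCm39, with no roles or strand setting given. Deposited values are raw read counts per gene, with lengths from gene start to gene end per the file headers, and TPM on exonic lengths. TPM multiplied by exonic length came out as whole multiples of 1 constant in each library (100% within a tolerance of 0.02, over at least 11878 values a library). These are called exon reads here. No molecular identifiers are named in the labels, so depth covers counting error only. Libraries of a group came from different animals, by the numbers in their names.

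Comparisons of 2 groups and tests of subsets or interaction used edgeR 4.0.16 in R 4.3.3 (TMM, filterByExpr, robust quasi-likelihood F test, Benjamini-Hochberg at 0.05 over all tested genes). Averages over subsets used limma 3.58.1 (voom, animal as random block, consensus correlation 0.0729, and 0.0864 without ABC). Standard errors come from the test statistic. Positive differences are 1Mek2 minus wt, or the named subset minus Follicular or Immature. CPM in comparisons are TMM-scaled gene counts. Alternatives were RLE scaling, no filter, DESeq2 1.42.0, exon reads, a block, each library or animal left out and, added after seeing the data, a term for library type and the interaction without ABC. Library names carry an animal number, which pairs subsets within a genotype. Scripts were tested on simulated data with the same dispersion for all genes. In the GC genotype comparison 35% of 2-fold and 99% of 4-fold changes were called, and in Plasma 11.3% and 91.8%. A count of 0 called members thus does not show equal levels.

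Named members were, in each comparison, up to 6 called in each direction without overlapping groups and at a mean of 5 CPM or more, or the 3 smallest p where fewer than 3 were called, the 5 highest and lowest in TPM, the Mrps18 paralogs, the stalk proteins Mrpl10, Mrpl11 and Mrpl12, and Mrps12 and Mrpl58. Other names were chosen after their values were seen. The members and lists were chosen with earlier results of these data known. Protein sequences were not used here.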

Additional observations from a re-analysis of the deposited data

Results flagged for a closer look

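In a group of 4 libraries, a library was marked where its gap to the next divided by the group's range was above Dixon's critical value. Follicular 1Mek2 replicate 1 was such a library for Mrps34, at 265 CPM, and for Mrps16, at 330 CPM, 2 of 28 groups of values examined, where chance marks about 1 in 20. Without this library the genotype differences in Follicular were 0.79 for Mrps34 and 0.75 for Mrps16, in place of 1.25 and 1.15.

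For 14 members the genotype difference differed between subsets by the interaction test (edgeR), with the limits of that test given above. The adjusted p was 2.27e-05 for Mrpl34, 0.00111 for Mrpl51, 0.0015 for Mrpl46, 0.00261 for Mrpl20, 0.00282 for Mrpl41, 0.00433 for Mrps26, 0.00551 for Mrpl53, 0.00626 for Mrpl30, 0.00993 for Mrps11, 0.011 for Mrps17, 0.0129 for Mrpl11, 0.0295 for Mrpl50, 0.0417 for Mrpl13 and 0.0452 for Mrpl12. Without the ABC libraries 1 member passed.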

How the results depend on the processing

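Values are numbers of members called, with the reported number in brackets at first mention. Where no share of all genes stands beside a count, it describes the members only and does not compare them with other genes. RLE scaling gave 2 in the Immature genotype comparison (1), and with it the median of all genes moved by more than 0.1 in ABC, as given above, and in Immature against Follicular wt (0.47 to 0.30). No filter gave 2 there, 7 in ABC (0), 2 in Plasma (0), 29 for Immature against Follicular wt (11), 10 for GC (4), 2 for Plasma (1) and 12 for MarginalZone 1Mek2 (3). DESeq2 gave 0 in the Immature genotype comparison, 21 in ABC, 3 in MarginalZone (0) and 15 in Plasma, and against Follicular 21, 10, 35 and 3 for Immature, GC, ABC (20) and Plasma in wt, 14 for MarginalZone 1Mek2 and 1 for Plasma 1Mek2 (0). Exon reads gave 0 in the Immature genotype comparison, 2 for Immature wt, 10 for GC wt, 9 for Immature 1Mek2 (25), 1 for MarginalZone 1Mek2 and 5 in the average without ABC (10). Of all tested genes they called 50 of 14631, 999 of 15186, 2573 of 14045, 1620 of 14092 and 125 of 13064, with the average left out. The term for library type gave 2 in Follicular genotype (0), 18 in Plasma genotype, 11 for ABC wt, 2 for Plasma wt, 1 for MarginalZone 1Mek2, 2 for Plasma 1Mek2 and 19 in the average without ABC. The interaction without the ABC libraries gave 1 (14). The cause of these shifts was not tested. All other numbers stayed within 1.5 times, and no direction of a named member reversed.

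Replicate numbers do not pair the genotypes: deviations of same-numbered libraries correlated from -0.54 to 0.43. With the replicate number as a block, 7 members passed in Immature, 36 for Immature against Follicular wt, 8 for Plasma wt and 13 for Immature 1Mek2. With the animal as a replicate block, 13 passed for ABC wt, 1 for ABC 1Mek2 (0), 2 for Plasma 1Mek2 and 2 for GC against Immature 1Mek2 (0). The block moved no other count by over 1.5 times.

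Without each library in turn, the counts ran from 0 to 3 in Immature genotype, 0 to 1 in ABC, 6 to 39, 2 to 22, 8 to 44 and 0 to 17 for Immature, GC, ABC and Plasma against Follicular wt, 4 to 42, 5 to 31, 0 to 2, 1 to 3 and 0 to 2 for Immature, GC, ABC, MarginalZone and Plasma in 1Mek2, and without each animal from 25 to 37 and 3 to 15 in the averages with and without ABC. Of 84 values of named members, 16 lost their call on exon reads. The 84 include members named for a small p that had no call to lose, so 84 is not the number of calls. In ABC wt replicate 1, 46 members had fewer than 10 exon reads, which limits the precision of their values.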
